A study of Mus musculus with 2 samples.

Results

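The 10 genes described here carry the enzymes and the transporter that take up arginine and share it between arginase, nitric oxide synthase and the polyamine pathway. They are Arg1, Arg2, Nos2, Slc7a2, Ass1, Asl, Odc1, Srm, Sms and Oat, chosen by name from the 54446 genes of the count files after matching gene identifiers to GENCODE M21, and all 10 had a mean count of at least 10. The data are gene counts from C57BL/6 bone marrow derived macrophages (BMDMs), cells grown in culture from marrow. A single library came from untreated cells (control) and a single library from cells given IL-36 gamma, a member of the interleukin-1 cytokines. The sources used here do not give the dose, the time of exposure, the growth factor used to raise the cells, the age and sex of the mice or whether animals were pooled. Nothing says that the libraries come from separate mice or cultures. The comparison asks how far transcripts of arginine use differ between these libraries.

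Arginase splits arginine into ornithine and urea, and nitric oxide synthase turns the same substrate into nitric oxide and citrulline. Ornithine feeds polyamine synthesis through ornithine decarboxylase, or proline and glutamate synthesis through ornithine aminotransferase, while citrulline can be rebuilt into arginine. In mouse macrophages Arg1 is a textbook marker of alternative activation, driven by IL-4 and IL-13 through STAT6, and Nos2 is the textbook marker of classical activation, driven by interferon gamma and microbial products.

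Gene counts summed to 17426367 in the control library and 17267900 in the other. Macrophage markers were present throughout: 10 of 10 were measured, with a summed level of 30640 CPM (TMM-scaled counts relative to library size) in the control and 30700 after treatment. Some markers of other cells differed between the libraries, called higher or lower by the interval rule given below. By that rule 20.2% of all measured genes were higher and 16.5% lower. Of 13 measured neutrophil markers, 8 were higher and 1 lower with IL-36 gamma, and the list summed to 423 and 508 CPM; Ctsg had 0 counts in the control, and Ly6g had 8 and 9. Of 8 monocyte markers, 5 were higher and 1 lower, with sums of 337 and 314 CPM. Of 6 measured fibroblast markers, 3 were lower and 0 higher, the list summed to 17.8 and 11.9 CPM, and Lum and Pdgfra were at 0 in both libraries. The T cell genes Cd3e, Cd3g and Cd8a were at 0 in both, and of 10 markers of T and NK cells only Cd4 was measured (232 and 128 counts), with list sums of 13.5 and 7.74 CPM. B cell markers (3 of 7 measured) summed to 43.6 and 47.2 CPM. Dendritic cell markers (1 of 8 measured, Cd209a and Siglech at 0 in both) summed to 11.6 and 14.8 CPM, and erythroid, mast cell and megakaryocyte markers (3 of 11 measured) to 325 and 271 CPM. Pf4 alone made up 311 and 261 CPM of this last sum, and Hbb-bt, Cpa3, Mcpt8 and Ms4a2 were at 0 in both libraries. The part of these other cells in the values below was not tested. In bulk RNA, fewer cells of a type and less RNA per cell cannot be told apart.

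Every ratio below is IL-36 gamma over control after TMM scaling, with an exact (Clopper-Pearson) 95% interval in brackets that covers counting error only. There were no replicates, so no p-values are given, and "higher" and "lower" describe these libraries and not the treatment. A gene is called higher or lower when its whole interval lies above or below 1. Arg1 was the only 1 of the 10 genes called lower, and Ass1, Odc1 and Sms were called higher. Of all 14379 measured genes, 20.2% were called higher and 16.5% lower by the same rule, which makes 55.0% of all calls higher, against 39.2% when total counts were used for scaling. The 10 genes include 7 with a mean count of 500 to 2000, where counting error is small; 3 of these were called higher and 1 lower, and among all 4174 measured genes of that range 27.9% and 21.9% were. The share of calls among the 10 genes was thus near that of genes at large. None of the 10 had an interval wholly beyond 2-fold, which 0.167% of measured genes had.

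**Figure D1:**
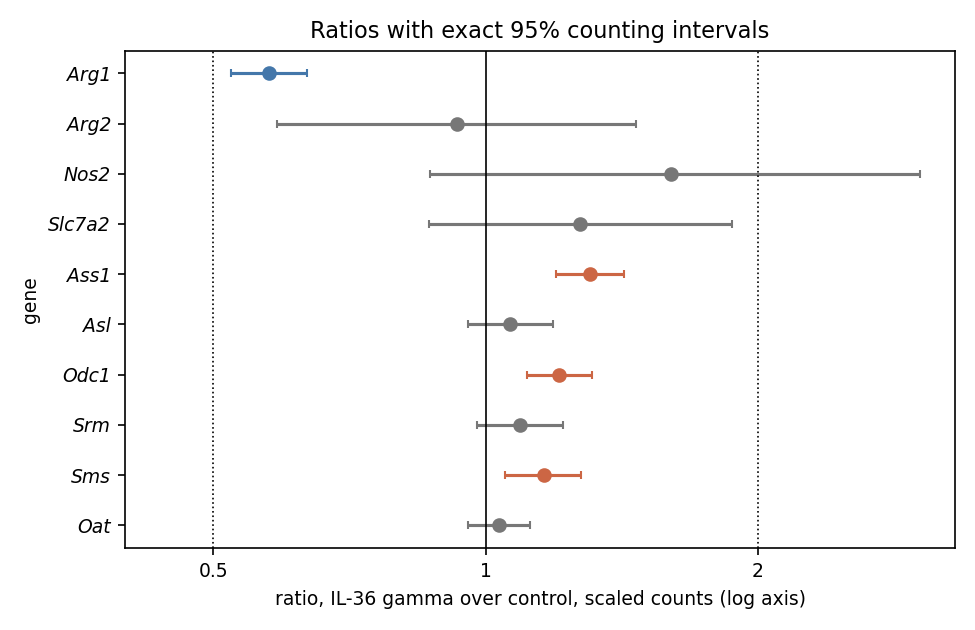
Ratio of scaled counts, IL-36 gamma over control (horizontal log axis), for each of the 10 genes, with bars for the exact 95% counting interval, a solid line at 1 and dotted lines at 0.5 and 2. Arg1 lies at 0.577 with its interval between the lines at 0.5 and 1, while Ass1, Odc1 and Sms lie above 1 and the other 6 intervals cross it.

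Arg1 (ENSMUSG00000019987.9, chromosome 10, 24915221 to 24927484, minus strand, mm10) encodes the cytosolic arginase. It had 1181 counts in control cells and 649 after IL-36 gamma, or 66.5 and 38.3 CPM. The control value was the higher of the pair, and the ratio of 0.577 (0.523 to 0.635) corresponds to a level 1.73-fold lower with IL-36 gamma. Arg1 was also the only 1 of the 10 genes whose interval lay wholly beyond a log2 ratio of 0.32 on either side, a bound passed by 1.52% of measured genes above and 2.53% below. Of the 14379 measured genes, 452 (3.14%) had a lower ratio than Arg1. Among 4285 genes whose mean count lay within 2-fold of that of Arg1, 5 (0.117%) had a lower ratio. These were Il1rn (the interleukin-1 receptor antagonist), Vcam1 (an adhesion molecule), Zfp871 (a zinc finger gene), Itgax (the integrin chain CD11c) and Cadm1 (a cell adhesion gene), singled out after their values were seen. No exon of Arg1 overlaps another annotated gene. Words of 50 bases, here and below, were taken from the longest transcript of a gene. None of those of Arg1 occurs in a transcript of another gene, so no copy was found, but its other exonic bases were not searched.

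**Figure D2:**
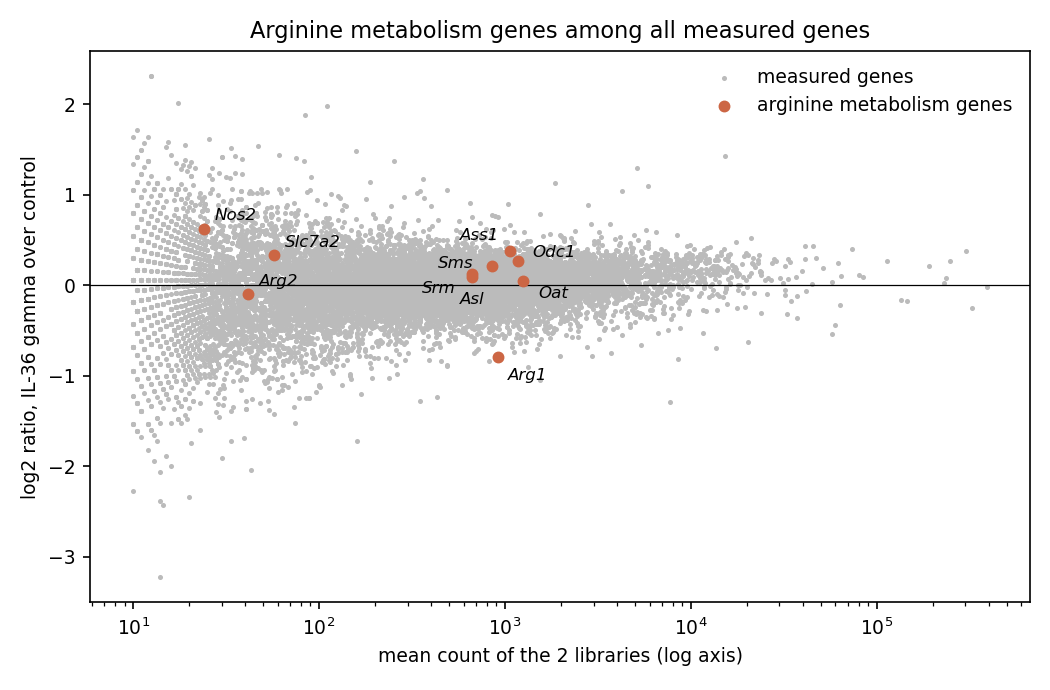
Log2 ratio of IL-36 gamma over control (vertical axis) against the mean count of the 2 libraries (horizontal log axis) for the 14379 measured genes in grey and the 10 arginine metabolism genes in orange. Arg1 lies at the lower edge of the genes with a similar count, while Arg2, Nos2 and Slc7a2 lie to the left among genes with few counts and a wide spread.

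With 2 libraries the pattern of a gene is a single ratio, so likeness to Arg1 can only mean a similar ratio at a similar level. Among 1299 protein-coding genes with a control level within 0.32 of that of Arg1 on the log2 scale, the nearest in log2 ratio were Cadm1 (1074 and 574 counts, ratio 0.561), the histone methyltransferase gene Kmt2a (1416 and 809 counts, ratio 0.60) and the myelin protein gene Pmp22 (1377 and 816 counts, ratio 0.622).

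Arg2 (ENSMUSG00000021125.6, chromosome 12, 79130777 to 79156301, plus strand) encodes the mitochondrial arginase. It had 44 counts in control cells and 39 in treated cells, 2.48 and 2.30 CPM. The values lay close together, and the ratio of 0.930 (0.589 to 1.47) has a wide interval that spans 1. Of its 1428 exonic bases, 401 overlap Vti1b or Gm48780 on the opposite strand, and whether the counting used strand is not given, so this count is uncertain. Arg1 made up 96.4% (95.2 to 97.4, exact binomial) of all arginase counts in control cells and 94.3% (92.3 to 95.9) after treatment. The summed arginase counts went from 1225 to 688, a ratio of 0.590 (0.536 to 0.648).

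Nos2 (ENSMUSG00000020826.8, chromosome 11, 78920787 to 78960254, plus strand), which encodes the inducible nitric oxide synthase, had few counts in both libraries. It had 19 control counts and 29 after IL-36 gamma, 1.07 and 1.71 CPM, where 3 counts equal 0.169 and 0.177 CPM. The IL-36 gamma value was the higher, but the ratio of 1.60 (0.868 to 3.02) has an interval that includes both 1 and 2. Among 2376 genes with a mean count within 2-fold of that of Nos2, 249 (10.5%) had a higher ratio. A difference in Nos2 was not detectable at this depth.

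Slc7a2 (ENSMUSG00000031596.15, chromosome 8, 40862396 to 40922308, plus strand) encodes CAT2, the cationic amino acid transporter that brings arginine into activated macrophages. It had 52 and 63 counts, 2.93 and 3.72 CPM, and a ratio of 1.27 (0.867 to 1.87). Of its 9135 exonic bases, 635 overlap Gm26584 on the opposite strand. Slc7a2 and Nos2 were thus low in both libraries, and the interval of each includes 1.

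Ass1 and Asl carry the enzymes that rebuild arginine from citrulline, argininosuccinate synthase and argininosuccinate lyase. Ass1 (ENSMUSG00000076441.9, chromosome 2, 31470207 to 31520672, plus strand) had 950 control counts and 1181 after IL-36 gamma, 53.5 and 69.8 CPM. It was higher with IL-36 gamma, with a ratio of 1.30 (1.20 to 1.42), the highest of the genes called among the 10. Asl (ENSMUSG00000025533.15, chromosome 5, 130011258 to 130029247, minus strand) had 661 and 671 counts, 37.2 and 39.6 CPM, and a ratio of 1.06 (0.956 to 1.19). The ratio of Ass1 was 1.23 times that of Asl (1.07 to 1.41), a difference beyond counting error before any trend was removed. With the length trend removed the ratios lay closer, at 1.22 for Ass1 (1.12 to 1.33) and 1.07 for Asl (0.960 to 1.19). Those intervals overlapped, and whether the 2 steps of citrulline recycling still differed was not tested. The pseudogene Gm5424 holds 55.3% of the 50-base words of Ass1. It had 21 and 32 counts, few beside Ass1. Reads with several alignments were left out of the gene counts, so the Ass1 values are uncertain. Among 4066 genes with a mean count within 2-fold of that of Ass1, 105 (2.58%) had a higher ratio.

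The first enzyme of polyamine synthesis, ornithine decarboxylase, is encoded by Odc1 (ENSMUSG00000011179.8, chromosome 12, 17544794 to 17551505, plus strand). Odc1 had 1090 control counts and 1253 after IL-36 gamma, 61.3 and 74.0 CPM. It was higher with IL-36 gamma, at a ratio of 1.21 (1.11 to 1.31). The spermidine synthase gene Srm (ENSMUSG00000006442.10, chromosome 4, 148591503 to 148594993, plus strand) had 651 and 677 counts, 36.6 and 40.0 CPM, and a ratio of 1.09 (0.979 to 1.22) whose interval includes 1. The spermine synthase gene Sms (ENSMUSG00000071708.11, chromosome X, 157443855 to 157492287, minus strand) had 809 and 893 counts, 45.5 and 52.7 CPM. Its ratio of 1.16 (1.05 to 1.28) lay above 1. Differences of this size were common at these levels: 329 of 3955 genes (8.32%) with a mean count within 2-fold of that of Odc1 had a higher ratio, and for Sms 683 of 4407 (15.5%). The ratio of Srm was 0.942 times that of Sms (0.814 to 1.09), so a difference between these 2 synthases was not detectable. Summed over Odc1, Srm and Sms, counts went from 2550 to 2823, a ratio of 1.16 (1.10 to 1.23). Near-identical copies make Odc1 and Sms uncertain. Of the 50-base words of Odc1, 42.2% occur in transcripts of other genes, and the 9 genes that hold at least 5% of them had 98 control counts and 93 after IL-36 gamma. For Sms the share was 28.7%, and the pseudogene Sms-ps had 20 and 11 counts.

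Promoter sequences of 250 bases before to 50 after a start site were matched in RefSeq (build GRCm38.p6) for 4 of the 10 genes, Ass1, Odc1, Sms and Oat. They are shown because only these 4 had an entry among the promoters used. The first 3 are the genes called higher, and Oat is a partner whose interval includes 1. Each runs in the direction of transcription, and capitals mark the E-box CACGTG, the word bound by Myc and related factors.
Ass1, chr2:31470020-31470319, plus strand: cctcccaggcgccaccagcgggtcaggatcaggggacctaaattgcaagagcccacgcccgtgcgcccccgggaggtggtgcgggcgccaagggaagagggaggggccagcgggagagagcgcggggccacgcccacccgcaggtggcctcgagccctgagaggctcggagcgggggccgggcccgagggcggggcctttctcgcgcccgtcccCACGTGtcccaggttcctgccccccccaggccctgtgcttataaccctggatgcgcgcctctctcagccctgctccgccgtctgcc
Odc1, chr12:17544623-17544922, plus strand: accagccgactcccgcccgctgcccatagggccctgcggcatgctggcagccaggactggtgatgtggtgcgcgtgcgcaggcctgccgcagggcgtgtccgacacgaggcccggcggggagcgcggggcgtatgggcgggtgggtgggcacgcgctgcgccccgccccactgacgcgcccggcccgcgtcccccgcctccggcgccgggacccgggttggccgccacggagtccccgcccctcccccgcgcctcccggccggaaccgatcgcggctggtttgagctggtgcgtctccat
Sms, chrX:157492238-157492537, minus strand: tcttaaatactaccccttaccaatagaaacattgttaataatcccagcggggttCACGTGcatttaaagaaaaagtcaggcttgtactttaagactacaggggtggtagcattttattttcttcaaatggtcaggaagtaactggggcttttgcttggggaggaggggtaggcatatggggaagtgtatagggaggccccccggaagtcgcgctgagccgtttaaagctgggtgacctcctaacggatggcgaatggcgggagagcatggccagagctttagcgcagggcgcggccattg
Oat, chr7:132576349-132576648, minus strand: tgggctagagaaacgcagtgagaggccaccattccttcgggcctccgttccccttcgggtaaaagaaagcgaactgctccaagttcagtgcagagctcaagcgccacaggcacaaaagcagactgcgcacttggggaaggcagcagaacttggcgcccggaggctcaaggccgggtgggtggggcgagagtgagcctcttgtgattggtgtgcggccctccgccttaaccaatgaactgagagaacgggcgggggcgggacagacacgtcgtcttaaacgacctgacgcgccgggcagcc

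An E-box CACGTG began 36 bases before the start site of Ass1 and 196 bases before that of Sms, and none was found in the windows of Odc1 and Oat or at a further start site of Sms. The word is its own reverse complement, and 7.15% of all 32851 promoters of 300 bases in the table hold it. The STAT6 word, TTC and GAA with 4 free bases between, and the word of interferon regulatory factors, GAAA repeated with 2 free bases between, were searched on both strands. Neither matched any of these windows, against 6.95% and 3.44% of all promoters. The same held for the word of other STAT factors, TTC and GAA with 3 free bases between (8.30% of promoters; the STAT words can overlap), TTGCGCAA of C/EBP factors (0.183%) and TATAAA, the TATA box (13.6%). A loose form of the NF-kB site, GGG and CC with 5 free bases between, matched Ass1, Odc1 and both Sms windows but also 50.8% of all promoters. These matches describe letters in a window and were set against no binding data. Arg1, Arg2, Nos2, Slc7a2, Asl and Srm had no promoter entry, so their windows were not searched and are not shown.

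Oat (ENSMUSG00000030934.9, chromosome 7, 132557478 to 132576398, minus strand) encodes ornithine aminotransferase, the mitochondrial enzyme that leads ornithine towards glutamate and proline. It had 1266 control counts and 1248 after IL-36 gamma, 71.2 and 73.7 CPM. The libraries were nearly level, at a ratio of 1.04 (0.956 to 1.12). This interval is narrow but shifts with the processing. It was 0.919 to 1.08 with total counts for scaling and 0.894 to 1.05 with the length trend removed. The ratio of Odc1 was 1.17 times that of Oat (1.04 to 1.31) and that of Ass1 1.26 times (1.12 to 1.42), in pairs chosen after the values were seen.

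Arg1 moved apart from its partners on a measure that needs no scaling. The ratio of Arg1 divided by that of each of the other 9 genes lay below 1 with its whole conditional exact 95% interval for 9 of 9. It was 0.442 against Ass1 (0.388 to 0.504), 0.478 against Odc1 (0.421 to 0.543), 0.541 against Asl (0.468 to 0.627) and 0.557 against Oat (0.492 to 0.632). Against Srm it was 0.528 (0.456 to 0.612) and against Sms 0.498 (0.434 to 0.571). Against the genes with few counts the intervals were wide, 0.360 for Nos2 (0.189 to 0.671), 0.454 for Slc7a2 (0.304 to 0.675) and 0.620 for Arg2 (0.389 to 0.991), the last reaching close to 1. All 9 share the counts of Arg1 and are not independent.

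Levels of different genes were compared per length, as TPM, counts divided by union exon length and scaled to a common total within each library. In the control Oat (86.9 TPM, exact Poisson interval 82.2 to 91.8) and Arg1 (85.9, 81.0 to 90.9) stood highest and their intervals overlapped. Srm (66.0) and Ass1 (63.8) followed with overlapping intervals, then Odc1 (51.9), then Asl (22.2) and Sms (21.8), which overlapped. Arg2 (4.99) came next, and Slc7a2 (0.922) and Nos2 (0.698) were lowest, with overlapping intervals. In the IL-36 gamma library Arg1, at 45.8 TPM (42.4 to 49.5), was the fifth in order, below Oat (83.2), Ass1 (77.0), Srm (66.6) and Odc1 (57.9). Sms (23.4), Asl (21.8), Arg2 (4.30), Slc7a2 (1.08) and Nos2 (1.03) stayed below it. With the longest transcript as the length of each gene, Arg1 had 101 TPM in the control against 74.6 for Oat, and other neighbours changed places too. In the control Srm (61.7) then lay below Ass1 (71.1) and Odc1 (62.6). In the IL-36 gamma library Ass1 (85.7) then lay above Oat (71.3), Odc1 (69.8) above Srm (62.2) and Asl (34.2) above Sms (29.6), while Arg1 (54.0) was still the fifth. The order of these neighbours therefore rests on the gene model. The levels of Ass1, Odc1 and Sms are also uncertain because other genes hold near-identical copies and reads with several alignments were left out.

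**Figure D3:**
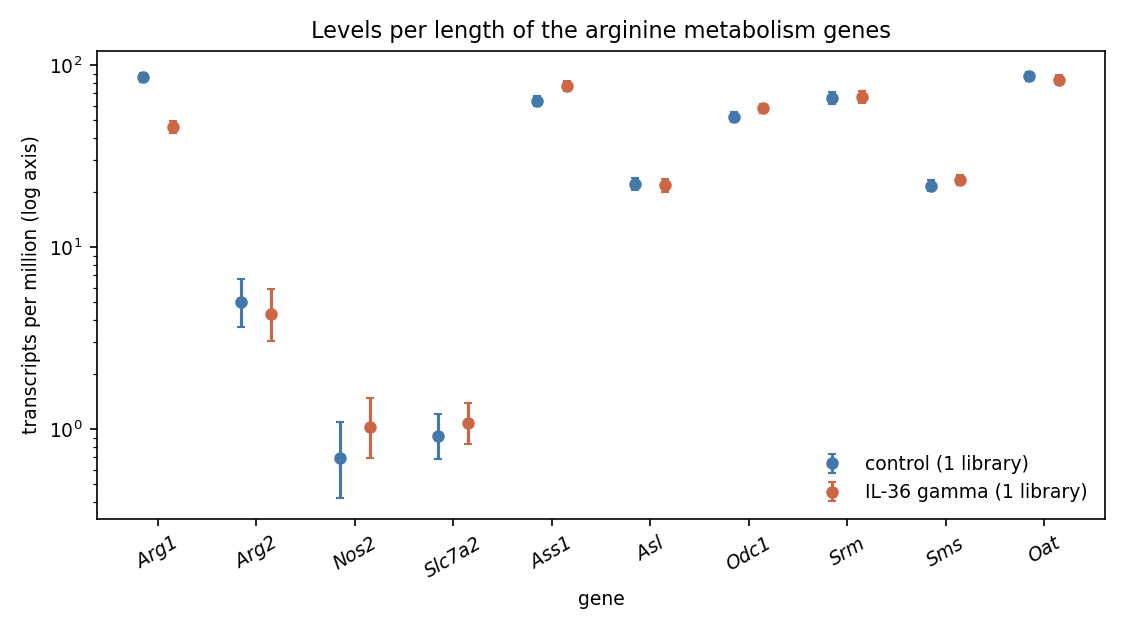
Level of each gene in TPM over union exon length (vertical log axis) in the control and the IL-36 gamma library, with exact 95% Poisson intervals. Arg1 stands at 85.9 in control cells and 45.8 after IL-36 gamma, while Nos2 and Slc7a2 lie near 1 in both.

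Per length, Arg1 exceeded Nos2 123-fold (78.5 to 205) in control cells and 44.3-fold (30.6 to 66.7) after IL-36 gamma, so arginase transcripts outnumbered those of inducible nitric oxide synthase in both libraries. Arg1 exceeded Ass1 1.35-fold (1.24 to 1.47) in the control and was 0.595 times Ass1 (0.540 to 0.656) with IL-36 gamma. Against Odc1, the enzyme that uses its product, Arg1 went from 1.66 times (1.52 to 1.80) to 0.792 times (0.719 to 0.871). Against Srm it went from 1.30 to 0.688 times. Of the 50-base words of Ass1 55.3% occur in other genes, and of Odc1 42.2%, against 0% for Arg1. Reads with several alignments were left out, so the levels of Ass1 and Odc1 may be too low, which was not tested. The control order of Arg1 with Ass1 and Odc1 is therefore uncertain.

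**Figure D4:**
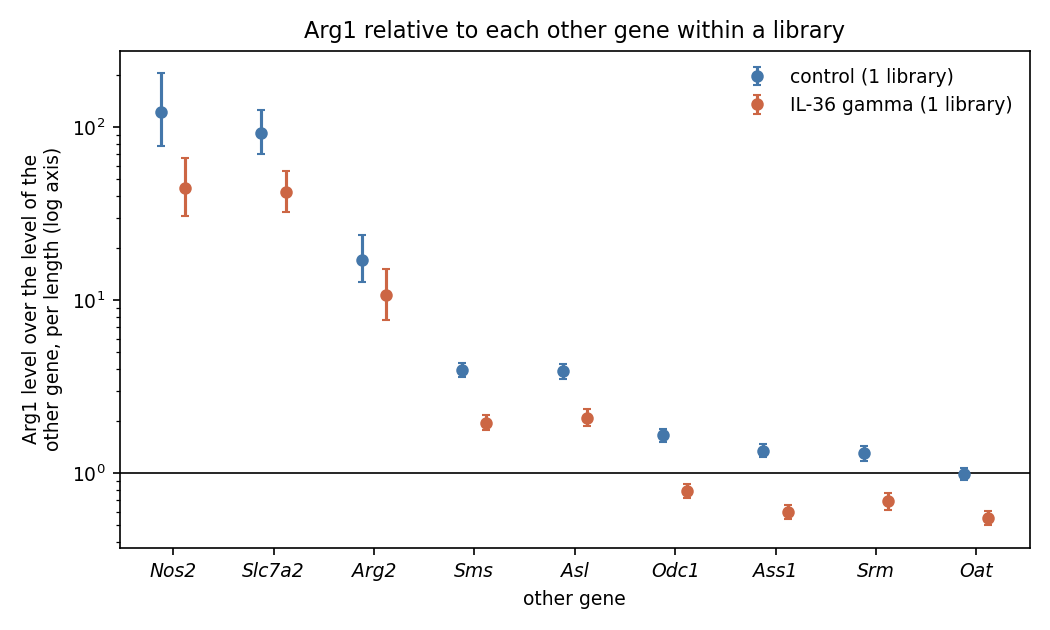
Level of Arg1 divided by the level of each other gene, per length (vertical log axis), in the control and the IL-36 gamma library, with exact 95% intervals. For Odc1, Ass1 and Srm the control lies above the line at 1 and the IL-36 gamma library below it, while for Nos2 the values are 123 and 44.3. The levels of Ass1 and Odc1 are uncertain because other genes hold copies of parts of them.

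Wider lists of the pathway were counted by the same rule. Over these lists, 28 of 90 measured genes were called higher and 16 lower. Among all measured genes 20.2% were higher and 16.5% lower, or 14.4% and 22.4% with total counts, under which 21 and 18 of the 90 were called. The share called lower was close to that of all genes. The median log2 ratio of the 90 genes was 0.07 against 0.01 for all genes. The 10 genes themselves had a median of 0.17.

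Among 9 measured transporters of arginine and ornithine, 2 were higher and 1 lower. Slc7a1, the housekeeping arginine transporter CAT1, had 390 and 466 counts, a ratio of 1.254 (1.09 to 1.44). Slc3a2, the heavy chain shared by several amino acid exchangers, had 4307 and 4773 counts, a ratio of 1.16 (1.12 to 1.21). The lysosomal arginine sensor gene Slc38a9 was lower, with 542 and 450 counts and a ratio of 0.871 (0.767 to 0.989); with the length trend removed it was 1.02 (0.898 to 1.16), and with the GC trend removed its interval also included 1. Slc7a7, the light chain of an arginine exporter, had 842 and 859 counts and a ratio of 1.07 (0.973 to 1.18).

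Nitric oxide synthase needs tetrahydrobiopterin as a cofactor. Gch1, which encodes the enzyme that starts its synthesis, had 427 and 451 counts, a ratio of 1.11 (0.969 to 1.27). Of 6 measured genes of this list, Qdpr, which regenerates the cofactor, was higher (1033 and 1138 counts, 1.16, 1.06 to 1.26) and Pts, an enzyme of its synthesis, was lower (395 and 322 counts, 0.856, 0.736 to 0.994). Both intervals included 1 with the length trend removed, and that of Pts also with the GC trend removed. Spr, another enzyme of the synthesis, had 593 and 616 counts (1.09, 0.972 to 1.22). The neuronal and endothelial synthase genes were at or near the limit of 3 counts, Nos1 with 1 and 2 counts and Nos3 with 0 and 4. Arginine methyltransferases and the enzymes that break down methylated arginine gave 2 higher and 0 lower of 9 measured genes, Prmt1 (1.15, 1.05 to 1.26) and Prmt7 (1.21, 1.05 to 1.40). Carm1 of the same family had 850 and 834 counts (1.03, 0.935 to 1.13).

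The genes that control and break down polyamines had 6 of 14 called higher and 2 lower, with a median log2 ratio of 0.07. Oaz1, the antizyme that directs ornithine decarboxylase to degradation, had 10451 and 12050 counts and a ratio of 1.21 (1.18 to 1.24). Azin1, which blocks antizyme, had 2547 and 2658 counts and a ratio of 1.10 (1.04 to 1.16). Amd1, which makes the aminopropyl donor for both synthases, had 995 and 1112 counts, a ratio of 1.17 (1.08 to 1.28). The acetyltransferase gene Sat1, the first step of polyamine breakdown, had 6005 and 6237 counts (1.09, 1.05 to 1.13), and the lysosomal polyamine exporter gene Atp13a2 11201 and 11307 (1.06, 1.03 to 1.09). Atp13a3, of the same transporter family, was lower, with 1579 and 1309 counts (0.870, 0.808 to 0.937), as was Sat2 on few counts (39 and 19, 0.511, 0.279 to 0.906). The interval of Azin1, Atp13a2 and the salvage gene Mtap included 1 when total counts were used for scaling, that of Sat1, Mtap and Atp13a3 when the length trend was removed, and that of Atp13a2 when the GC trend was removed.

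Spermidine is also the donor for hypusine, a modified lysine of the translation factor eIF5A. Of the 4 genes of this list, Eif5a (9483 and 10743 counts, 1.19, 1.16 to 1.22), Dohh (274 and 348, 1.33, 1.13 to 1.57) and Dhps (381 and 427, 1.18, 1.02 to 1.35) were higher, the last 2 being the enzymes that make hypusine. The interval of Dhps included 1 with total counts and with the length or the GC trend removed. The second eIF5A gene, Eif5a2, was lower, with 153 and 103 counts (0.707, 0.545 to 0.913).

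Of 6 measured genes of proline and glutamate routes, Aldh18a1, which starts proline synthesis from glutamate, was higher (248 and 299 counts, 1.26, 1.07 to 1.504) and the proline oxidase gene Prodh lower (174 and 130, 0.784, 0.620 to 0.99), the latter not called with the length trend removed (0.827, 0.654 to 1.04). Pycrl, which completes proline synthesis, had a ratio of 1.09 (0.932 to 1.27), an interval that includes 1. In the list of urea cycle, agmatine and creatine genes, 2 of 5 were higher and 1 lower. The creatine transporter gene Slc6a8 had 3115 and 2318 counts, a ratio of 0.781 (0.740 to 0.825). Cps1, the first urea cycle enzyme, had 41 and 69 counts (1.77, 1.18 to 2.67) and the creatine synthesis gene Gamt 343 and 387 (1.18, 1.02 to 1.37). Gamt was not called with total counts or with the length or the GC trend removed. Gatm, which makes the creatine precursor from arginine, was level at 1049 and 1030 counts (1.03, 0.945 to 1.12). Of 7 genes listed for arginine sensing by the kinase complex mTORC1, not all of them sensors, Sec13 was higher (1197 and 1331 counts, 1.17, 1.08 to 1.26) and 0 were lower. The cytosolic sensor gene Castor2 had a ratio of 1.01 (0.922 to 1.10).

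Of 9 measured regulators of Arg1, 4 were higher and 1 lower. Cebpb, a transcription factor that acts on the Arg1 enhancer, had 4040 and 5342 counts, a ratio of 1.39 (1.33 to 1.45). The factor gene Klf4 had 64 and 106 counts (1.74, 1.26 to 2.41), the receptor gene Il4ra 2743 and 3194 (1.22, 1.16 to 1.29) and Stat3 1950 and 2126 (1.14, 1.08 to 1.22). Stat6 had 5186 and 5115 counts, a ratio of 1.04 (0.996 to 1.08). Hif1a was lower, with 1293 and 1108 counts (0.899, 0.829 to 0.975), and its interval included 1 with the length or the GC trend removed. Messenger levels do not report the activity of these factors. Of 8 regulators of Nos2, 2 were higher and 2 lower. The interferon gamma receptor gene Ifngr2 was higher (2283 and 2321 counts, 1.07, 1.01 to 1.13), and its partner chain Ifngr1 (2986 and 2507, 0.881, 0.835 to 0.930) and the kinase gene Jak1 (3315 and 2989, 0.946, 0.900 to 0.995) were lower. Ifngr2 was not called with total counts, DESeq2 size factors or the length trend removed, nor Jak1 with the length or the GC trend removed.

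Genes that mark alternative activation beside Arg1 were split. Of 6 measured, 4 were lower, with Egr2 at 0.298 (0.226 to 0.389), Cd163 at 0.423 (0.364 to 0.491), Mrc1 at 0.672 (0.634 to 0.712) and Clec10a at 0.808 (0.658 to 0.991). Chil3 was higher, with 1454 and 2061 counts (1.49, 1.39 to 1.59), as was Ccl22 on 17 and 32 counts (1.98, 1.06 to 3.79), which was not called with the length trend removed (1.85, 0.995 to 3.54). Retnla had 1 and 0 counts and Ccl17 0 in both libraries, at or under the limit of 3 counts. This list was already known to be mixed in these data and is no independent support for the Arg1 value. Of 7 genes of Myc and its partners, 2 were higher and 2 lower, and Myc itself, for which Odc1 is a well known target, had 554 and 521 counts (0.987, 0.874 to 1.12). The repressor gene Mxd1 was higher (332 and 388 counts, 1.23, 1.06 to 1.43), as was Max (1.10, 1.002 to 1.20), whose interval included 1 under each of the 3 other scalings and with the length trend removed. Mnt, another partner of Max, had 1243 and 1110 counts (0.937, 0.864 to 1.02). Mxd4 (0.805, 0.740 to 0.874) and Mga (0.780, 0.709 to 0.858), which also pair with Max, were lower. Of the genes named in these lists, Slc7a7, Slc38a9, Nos1, Nos3, Qdpr, Prmt7, Carm1, Azin1, Dhps, Stat6, Il4ra, Cebpb, Hif1a, Stat3, Jak1 and Mxd4 have exonic bases that overlap a gene on the opposite strand, and Dohh, Oaz1 and Hif1a bases that overlap one on the same strand, so their counts are less certain.

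**Figure D5:**
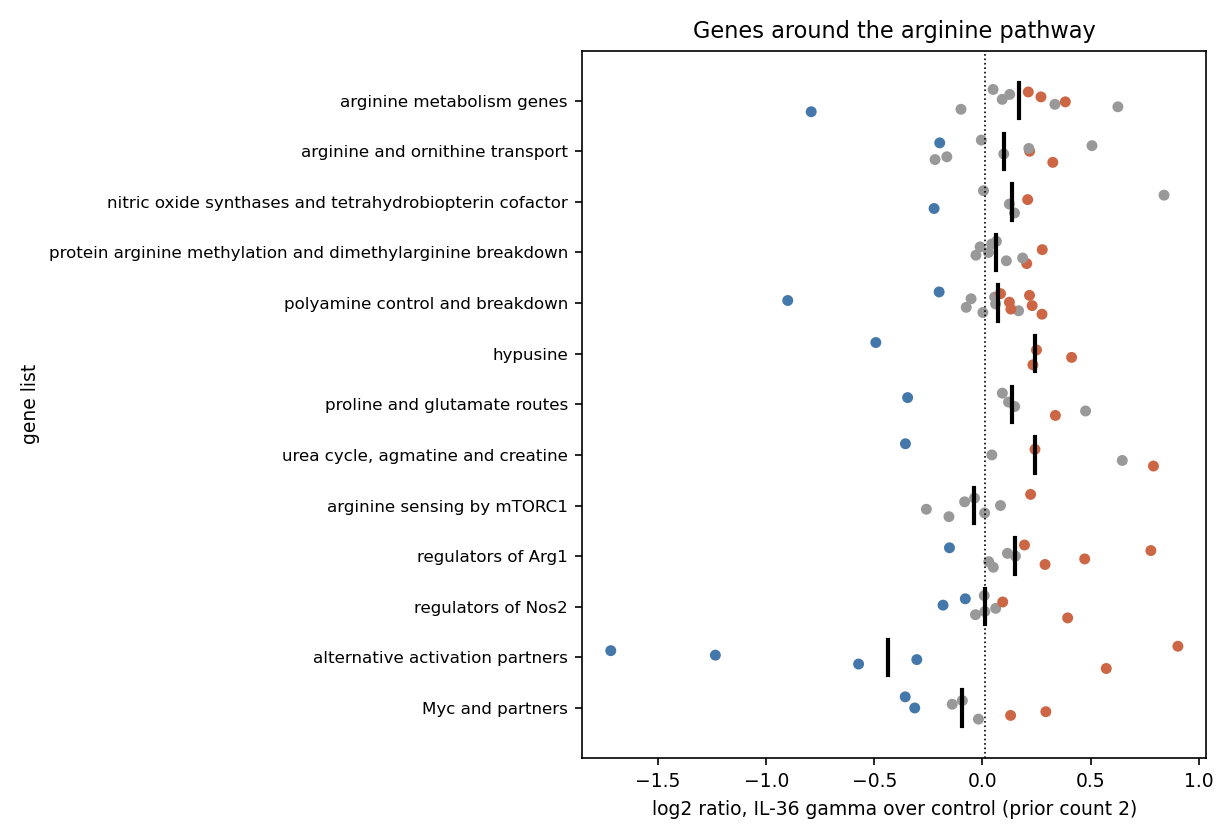
Log2 ratio of IL-36 gamma over control (horizontal axis) of each measured gene, by list, in orange for genes called higher, blue for genes called lower and grey for the rest; black bars are list medians and the dotted line is the median of all measured genes, 0.01. Most medians lie near that line, Arg1 is the only gene of its row called lower, and the alternative activation list has its median at -0.44 with genes on both sides.

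The ratio of measured genes also followed gene length in these libraries, from a median log2 ratio of 0.13 in the second of 10 length groups to -0.16 in the longest. Arg1, with 2228 exonic bases, belongs to a group with a median of 0.10 that also holds Ass1 and Oat, so its low value ran against that of genes of its length. With the length trend removed its ratio was 0.537. The long genes Sms and Slc7a2 belong to groups with medians of -0.05 and -0.07.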

How the data were processed

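Trizol RNA of macrophages was sequenced, with 1 control and 1 IL-36 gamma library, per the labels' protocols. The authors deposited raw counts for each Ensembl gene. Tools named by the submitters' processing notes are HTSeq, STAR 2.5.0a, Trim Galore 0.6.1 and FastQC 0.11.8, and the build is mm10. The sources used here do not give the annotation release or strand setting. Rows that name no gene were left out; of these, reads that the counter placed in no feature made up 47.2% and 46.3% of all counts, ambiguous reads 1.80% and 1.84%, and reads with several alignments 6.65% and 6.92%.

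Counts were scaled with TMM factors (1.02 and 0.981) from edgeR 4.0.16 in R 4.3.3. Without replicates no test was possible, and intervals cover counting error only. They treat every count as an independent molecule, which amplified copies are not, so they may be too narrow even for counting error. A gene counted as measured when its mean count reached 10. Symbols, positions and lengths came from GENCODE M21 (54409 of 54446 identifiers), and list medians used a prior count of 2. Of 194 listed names, 1 was matched by a RefSeq synonym and 3 had no single match. Named genes were every gene of the set, list genes with an interval beyond a log2 ratio of 0.32 on either side, or else the 2 most abundant; others named were chosen after their values were seen. The set and the lists were chosen with earlier results of these data known. The range of mean counts from 500 to 2000 and the pairs of Ass1 and Odc1 with Oat were chosen after seeing the data. The interval was tested on simulated counts. Protein sequences were not used here, and values of some list genes are left out. Computations used Python 3.11.15, numpy 2.4.6, pandas 2.3.3, scipy 1.17.1 and statsmodels 0.14.6. Alternatives were scaling by total counts, DESeq2 1.42.0 size factors or upper quartile, other count filters, fold bounds, interval levels and prior counts, and lowess trends (span 0.3) on length or GC content.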

Additional observations from a re-analysis of the deposited data

How the results depend on the processing

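Under 3 other scalings, 2 other count filters, removal of the length or the GC trend and a 99% interval, the 10 arginine metabolism genes stayed on the same side of 1 or across it in each setting in which they were measured. A mean count of at least 50 left out Arg2 and Nos2. The ratio of Arg1 ranged from 0.537 to 0.582, that of Ass1 from 1.22 to 1.30, that of Odc1 from 1.16 to 1.21 and that of Sms from 1.11 to 1.19. When an interval wholly beyond a log2 ratio of 0.32 was asked for, 0 of the 10 genes were higher and Arg1 was the 1 lower. With a bound of 1.5-fold in place of 2-fold, 1 gene passed, Arg1. The share of all measured genes beyond 1.5-fold is not given here, so how unusual this is was not tested. Of the wider lists, 10 genes in place of 16 were lower and 22 in place of 28 higher with the length trend removed. With the 99% interval 9 were lower and 22 higher, and with total counts for scaling 18 and 21. Among all measured genes, the share lower went from 16.5% to 14.3%, 11.5% and 22.4% in these settings. The share higher went from 20.2% to 18.4%, 15% and 14.4%. Among genes with no exonic overlap with another gene, which are fewer, 1782 were higher and 1366 lower. Levels over the longest transcript differed from those over union exons beyond the counting interval for Arg1, Ass1, Asl, Odc1, Sms and Oat; the cause is the length itself. No paired analysis was possible because each group has 1 library, and for the same reason no library could be left out. Few counts limit what can be said of Nos2, Arg2 and Slc7a2.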
